A study of Mus musculus with 160 samples.

Results

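The *Gata3*- SNS pools of E11.5 mouse embryos were ranked by their level of *Sox10*, and the 8 pools with more *Sox10* were compared with the 8 pools with less. A pool is 1 library made from 20 sorted cells. The 16 pools compared belong to the 20 pools of this population and to the 160 pools of 8 populations in the series. All pools came from the aorta-gonad-mesonephros (AGM) region of embryos of genotype *Gata3*-GFP +/-, in which GFP reports *Gata3*, and every group carried this reporter. SNS stands for sympathetic nervous system: *Gata3*- SNS cells were sorted as GFP- Ngfr+ and *Gata3*+ SNS cells as GFP+ Ngfr+, while mesenchymal cells (MC) of the same stage were sorted as Pdgfrb+. RNA was sequenced by Smart-seq2, which makes full-length cDNA from few cells. A pool entered when it had over 500000 counts on genes plus ERCC spike-in RNAs and more counts of *Ngfr* than of *Pdgfrb*. It was then ranked by *Sox10* as counts per 1000000 counts on genes (CPM). The groups were thus chosen by measured values of *Ngfr*, *Pdgfrb* and *Sox10*, so the split holds no labelled condition, and *Sox10* was left out of the test. *Ngfr* and *Pdgfrb* chose the pools and are given as description. The labels tie no pool to an embryo, so the p-values measure only the spread between pools, which may be technical.

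*Sox10* encodes a transcription factor of the SoxE family that neural crest cells keep when they become glia. It is required for the glial lineage of the peripheral nervous system, where it activates *Erbb3*, the neuregulin receptor, and genes of myelin. Neural crest cells that migrate to the dorsal aorta start to express factors that include *Hand2* and *Gata3*, lose *Sox10*, and become sympathetic neuroblasts with the enzymes of catecholamine synthesis. Schwann cell precursors, which keep *Sox10* and *Erbb3* and travel along nerves, give rise to most chromaffin cells of the adrenal medulla. A pool of *Ngfr*+ cells can therefore hold migrating crest cells, Schwann cell precursors and early neuroblasts in different shares, and in a pool a smaller number of such cells cannot be told apart from less RNA per cell.

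Of the 20 *Gata3*- SNS pools, 1 had 430042 counts on genes and was left out by depth. A further 3 were left out because *Ngfr* did not exceed *Pdgfrb*. These 3 pools had 1.12, 1.89 and 3.41 CPM of *Sox10* and between 248 and 389 CPM of *Prrx1*, a transcription factor of limb and trunk mesenchyme, which reached at most 31.5 CPM in the 16 pools compared. Conversely, 3 of the 17 *Gata3*- MC pools and 3 of the 20 *Gata3*+ MC pools with enough counts had more *Ngfr* than *Pdgfrb*. In the 3 *Gata3*+ MC pools *Sox10* was at 353 to 570 CPM and *Gata3* at 16.6 to 84.6 CPM, and in the 16 *Gata3*- SNS pools *Gata3* was at 11.8 to 98.8 CPM. In the 3 *Gata3*- MC pools *Sox10* was at 94.4 to 331 CPM and *Gata3* at 128.7 to 413 CPM, and in the 15 *Gata3*+ SNS pools that met the same limits *Gata3* was at 116.4 to 321 CPM. The 3 *Gata3*- SNS pools left out had 44.6 to 50.5 CPM of *Gata3*, a range inside the 19.6 to 71.5 CPM of the other 17 *Gata3*+ MC pools. Another 3 pools labelled *Gata3*+ SNS had *Pdgfrb* above *Ngfr*, with 0.26 to 5.68 CPM of *Sox10* and 291 to 381 CPM of *Prrx1*. Libraries of each of these labels thus went against them in *Sox10*, *Ngfr* and *Pdgfrb*. Why they did was not tested. None of them entered the main comparisons. In another fit the 3 *Gata3*- SNS pools were let in and the pools split anew, with these 3 in the low group. There edgeR called 0 of 14542 genes, with 1662 at an unadjusted p under 0.05.

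**Figure D1:**
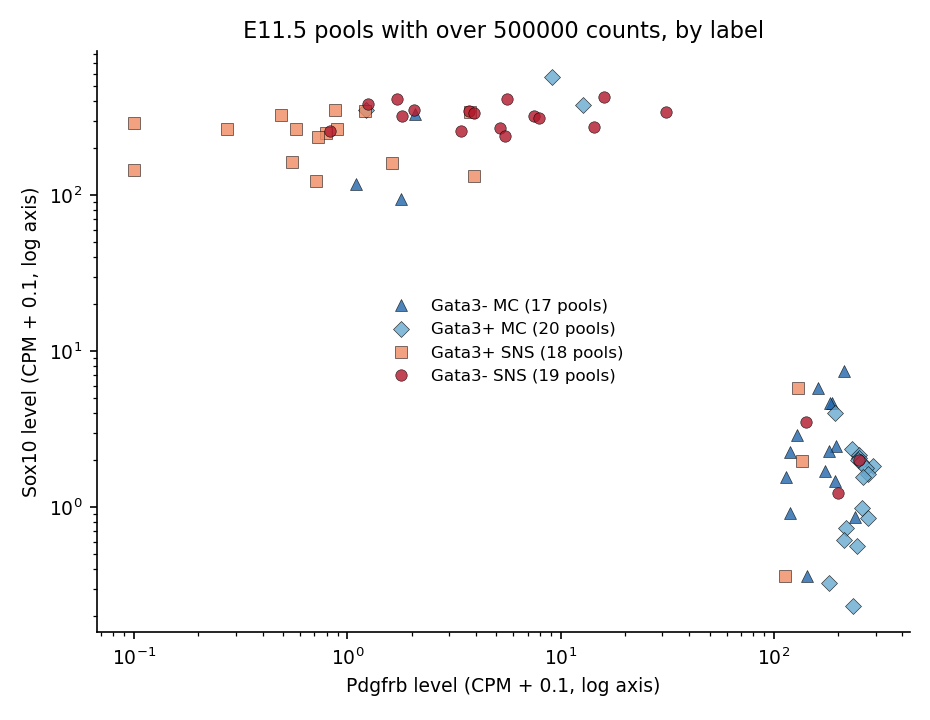
Levels of *Pdgfrb* (horizontal) and *Sox10* (vertical) in each E11.5 pool with over 500000 counts, as CPM plus 0.1 on log axes, with 1 point per pool and the marker set by the label. The 16 *Gata3*- SNS pools compared lie at the upper left, the 3 with 1.12 to 3.41 CPM of *Sox10* lie with most MC pools at the lower right, and 3 pools of each MC label lie at the upper left.

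The 16 pools were checked against the defining genes of *Ngfr*+ neural crest derivatives and of other cells. *Sox10* (chromosome 15, 79154908-79165240, minus strand, GRCm38, mouse gene annotation of GENCODE M21) was at 240.6 to 424.6 CPM. *Erbb3* was at 132.04 to 247 CPM and *Ednrb*, the endothelin receptor of migrating crest cells, at 337 to 1020 CPM. Endothelial *Cdh5* was at most at 0.22 CPM, while the 13 endothelial genes summed to 5.35 to 43.05 CPM, with *Egfl7* at up to 19.2 CPM, *Cldn5* at up to 17.1 CPM and *Kdr* at up to 16.8 CPM. *Ptprc*, the leukocyte gene for CD45, was at most at 0.23 CPM, and the 12 white blood cell genes summed to 0 to 29.95 CPM, with the highest sum in the pool of rank 1. Mature Schwann cell genes were near 0, with *S100b* at up to 3.57 CPM and *Gfap* at up to 1.49 CPM, and *Pou3f1* of promyelinating cells at up to 1.39 CPM. *Erbb3* and *Ednrb*, which the rule did not use, were thus present in each of the 16 pools. The 18 mesenchymal genes also summed to 1027 to 2132 CPM in them, against 190 to 902 CPM in the 15 *Gata3*+ SNS pools. Which cells this RNA came from, and what part it had in the results, was not tested.

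The *Sox10* levels of the 8 Sox10-high pools were 424.6, 411.9, 410.9, 381.6, 349.5, 344.6, 340.8 and 334.3 CPM. Those of the 8 Sox10-low pools were 320.7, 319.9, 311.0, 273.6, 269.0, 257.9, 257.6 and 240.6 CPM. These values chose the groups and are a description. The highest pool had 1.76 times the *Sox10* of the lowest, and the mean of the Sox10-high pools was 1.33 times that of the Sox10-low pools. The last pool inside the Sox10-high group had 1133 *Sox10* reads (334.3 CPM, 95% Wilson interval 315 to 354), and the first pool outside it had 1500 (320.7 CPM, 305 to 337), so the intervals of these neighbours overlapped. Such intervals cover counting error only, because PCR copies of a cDNA were not told apart. *Ngfr*, which encodes the p75 neurotrophin receptor used in the sort, was at 222 to 348 CPM in the Sox10-high and at 200 to 350 CPM in the Sox10-low pools. *Pdgfrb* was at 1.15 to 30.9 CPM and at 0.73 to 14.2 CPM, the highest value in the pool of *Sox10* rank 7.

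**Figure D2:**
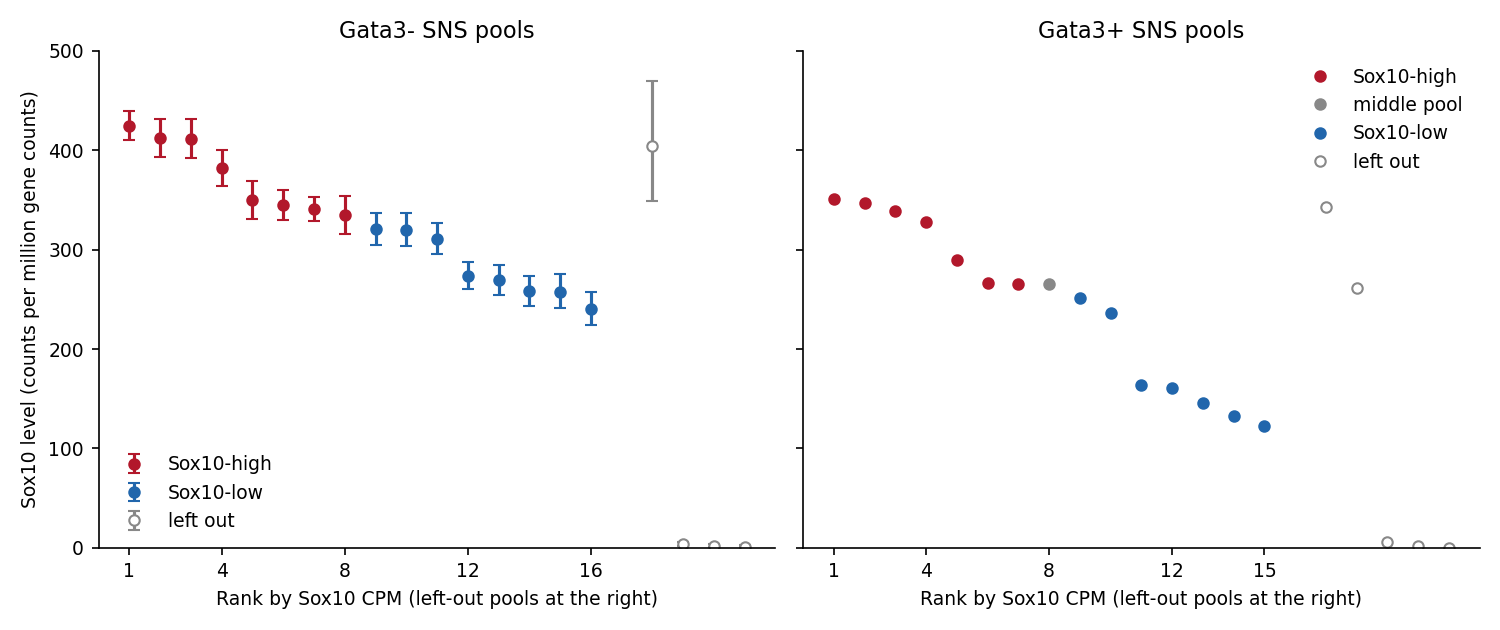
*Sox10* level of each *Gata3*- SNS pool (left, with 95% Wilson intervals for counting error) and each *Gata3*+ SNS pool (right), in CPM against rank. The *Gata3*- SNS pools fall in uneven steps from 424.6 to 240.6 CPM. The step at the split is 13.7 CPM, and larger steps lie within both groups. The *Gata3*+ SNS pools reach down to 122.7 CPM. Open points are pools left out.

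Library measures were compared because depth or RNA quality could move with *Sox10*. Counts on genes ranged from 3388884 to 9147907 in the Sox10-high pools (median 4342457) and from 3326393 to 5830433 in the Sox10-low pools (median 4648908). Between 12517 and 14522 genes per pool had at least 10 counts, and ERCC RNAs took 0.495% to 1.17% of the counts on genes plus ERCC RNAs. Mitochondrial genes took 5.94% ± 0.495 (SD, n = 8) of gene counts in the Sox10-high and 6.56% ± 0.469 (SD, n = 8) in the Sox10-low pools. That was the only measure of 5 with an unadjusted p under 0.05 in the exact two-sided permutation test of the mean difference (p = 0.0196), and its adjusted p was 0.098. The adjusted p of the other 4 measures lay between 0.763 and 0.942.

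No gene passed the test between the Sox10-high and the Sox10-low *Gata3*- SNS pools. edgeR's quasi-likelihood test was run on the 14219 genes that reached 10 counts in 5 pools or more. With limits of 0.01 on the adjusted p and of 0.1 on the size of the log2 fold change it called 0 genes in either direction (0% of the genes tested), and also 0 at an adjusted p under 0.05, the smallest adjusted p being 0.9998. At an unadjusted p under 0.05 there were 607 genes (4.27% of the genes tested), of which 314 were higher in the Sox10-high pools (2.21%) and 293 higher in the Sox10-low pools (2.06%). The unadjusted p-values were spread almost evenly between 0 and 1. DESeq2's Wald test also called 0 genes, with 654 at an unadjusted p under 0.05, and the gene ranking test of scanpy with overestimated variance 0, with 657. Fitting log2 *Sox10* over the 16 pools in place of the split called 0 genes as well (741 at an unadjusted p under 0.05, smallest adjusted p = 0.0795 by edgeR).

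The precision of the comparison sets what these results can exclude. The 95% interval of the log2 fold change lay within -1 and 1, that is within a 2-fold difference either way, for 9361 genes (65.8% of those tested). Among the 1953 genes with a mean of at least 100 CPM it did so for 1948, with a median standard error of 0.11. Over all 14219 genes the median standard error was 0.26 on the log2 scale, against 0.41 for the log2 ratio of the mean *Sox10* levels. A difference as small as that of *Sox10* itself was therefore not detectable for a gene of ordinary spread, and genes that are low or vary widely between pools could differ by more than 2-fold unseen.

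**Figure D3:**
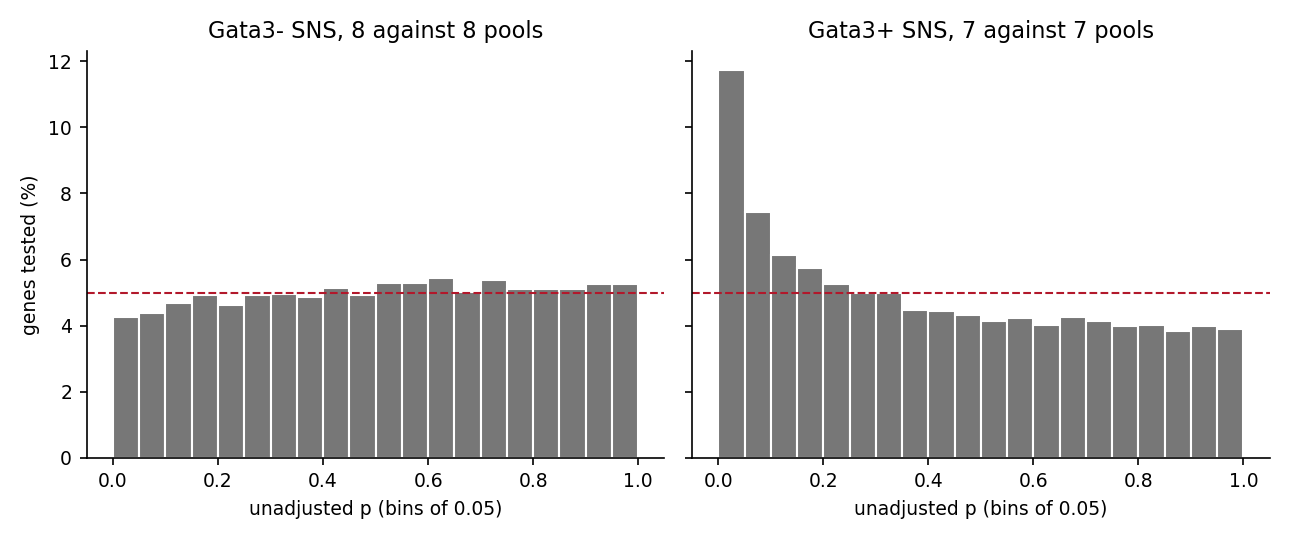
Share of genes tested (vertical, in %) by unadjusted p (horizontal, bins of 0.05) in the *Gata3*- SNS pools (left, 14219 genes) and the *Gata3*+ SNS pools (right, 13921 genes). The dashed line marks the share of an even spread. The first bin holds 4.27% of the genes in the *Gata3*- SNS pools and 11.7% in the *Gata3*+ SNS pools.

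Genes of Schwann cell precursors and neural crest glia gave no call, and most of their intervals lay within a 2-fold difference. Of the 25 genes in this list, 22 were tested, 0 passed, and 1 had an unadjusted p under 0.05, against 4.27% of all genes tested. Their median log2 fold change (Sox10-high minus Sox10-low) was -0.05, beside 0.00 for all genes tested, with 9 above and 13 below 0. For 17 of the 22 the 95% interval excluded a 2-fold difference, as it did for 65.8% of all genes tested. That limit is wider than the 1.33-fold difference of *Sox10* itself. *Erbb3* (chromosome 10, 128567523-128589652) ranged from 171 to 247 CPM with a median of 199.5 in the Sox10-high pools, and from 132.04 to 228 CPM with a median of 198.5 in the Sox10-low pools. The groups overlapped over most of their range, and the log2 fold change was 0.03 (95% interval -0.19 to 0.24). *Cdh19*, a cadherin of early glia, had medians of 181 and 182 CPM and a log2 fold change of -0.04 (-0.29 to 0.20). The values of both genes overlapped between the groups, and the intervals lay within a 2-fold difference.

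*Fabp7*, a fatty acid binding protein of immature glia, had medians of 145.8 and 162 CPM and a log2 fold change of -0.17 (-0.49 to 0.15). *Ednrb* spanned 337 to 906 CPM in the Sox10-high and 506 to 1020 CPM in the Sox10-low pools. Its lowest values stood in the pools of *Sox10* ranks 7 and 8 and its highest in that of rank 15, and the log2 fold change was -0.14 (-0.54 to 0.25). *Foxd3*, a crest and glial precursor factor, had a log2 fold change of -0.10 (-0.73 to 0.53). *Sox8*, a SoxE relative of *Sox10*, was at 58.7 to 137.2 CPM in the Sox10-high pools and at 42.7 to 93.4 CPM in the Sox10-low pools. Its log2 fold change of 0.38 (-0.01 to 0.77) had an unadjusted p of 0.055 and an adjusted p of 0.9998 by edgeR. The 1 gene of the list with an unadjusted p under 0.05 was *Pmp22*, a myelin protein gene that MC pools also express (46.4 to 197 CPM in the *Gata3*- MC pools with *Pdgfrb* above *Ngfr*). It was at 25.02 ± 8.40 CPM in the Sox10-high and 35.2 ± 8.90 CPM in the Sox10-low pools (SD, n = 8 each). Its log2 fold change was -0.52 (p = 0.032, adjusted p = 0.9998 by edgeR). The 3 members not tested were *Pou3f1*, *S100b* and *Gfap*.

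Of the 16 early neural crest factors 14 were tested and 0 passed. Their median log2 fold change was 0.12, with 2 members at an unadjusted p under 0.05, both higher in the Sox10-high pools. Of all genes tested, 2.21% were so in that direction. *Id3*, an inhibitor of helix-loop-helix factors, ranged from 1259 to 1730 CPM in the Sox10-high and from 1105 to 1460 CPM in the Sox10-low pools, with a log2 fold change of 0.20 (0.05 to 0.34, p = 0.010, adjusted p = 0.9998 by edgeR). *Sox5*, a SoxD factor of migrating crest, ranged from 42.01 to 116.4 CPM and from 39.4 to 79.3 CPM, with a log2 fold change of 0.37 (0.01 to 0.74, p = 0.047, adjusted p = 0.9998 by edgeR). The groups overlapped for both genes. *Sox9* and *Tfap2a*, which mark the premigratory and migrating crest, had log2 fold changes of 0.11 and 0.00.

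Factors of the sympathoadrenal lineage did not separate the groups either. Of 12 members 11 were tested, 0 passed and 0 had an unadjusted p under 0.05, and the median log2 fold change was -0.03. *Gata3*, the gene whose reporter was absent in the sort, had medians of 41.3 and 38.8 CPM and a log2 fold change of -0.03 (-0.82 to 0.75). *Isl1*, a LIM factor of sympathetic and sensory neurons, was at 0 to 52.7 CPM in the Sox10-high and 0.43 to 125.07 CPM in the Sox10-low pools. Its log2 fold change of -0.52 had a 95% interval from -2.38 to 1.35. Neither a 4-fold lower nor a 2-fold higher level in the Sox10-high pools was thus excluded.

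Many neuronal genes varied widely between these pools, within both groups. Over the 16 pools the median SD of log2(CPM + 1) was 1.10 for the 17 tested genes of young neurons and 1.28 for the 9 tested genes of catecholamine synthesis and storage, beside 0.44 for the 22 glial precursor genes and 0.46 for all genes tested. It was 1.11 for the 16 mesenchymal genes and 1.61 for the 6 adrenocortical genes tested, so that genes of these lists varied as much or more. The lists were not matched for level, on which such an SD can depend, and each held genes of both kinds. Differences from the gene's mean in log2(CPM + 1) ran from -2.84 to 2.21 for *Tubb3* but from -0.32 to 0.67 for neuronal *Crmp1*. They ran from -0.57 to 0.33 for *Erbb3* but from -2.62 to 1.71 for glial *Dhh*. *Tubb3* (chromosome 8, 123411424-123422015), the tubulin of postmitotic neurons, was at 9.80 to 207 CPM (median 90.9) in the Sox10-high and at 7.70 to 288 CPM (median 124.97) in the Sox10-low pools. Its 4 values under 15 CPM were shared by the groups, in the pools of *Sox10* ranks 5, 6, 9 and 12. The summed level of the 18 genes of young neurons ran from 530 to 1101 CPM in the Sox10-high pools and from 450 to 1515 CPM in the Sox10-low pools. The 3 highest sums belonged to the pools of ranks 16, 14 and 4, and the lowest to that of rank 9.

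Of the 17 tested genes of young neurons 14 had a log2 fold change below 0, with a median of -0.46, and 0 passed. An unadjusted p under 0.05 was reached by 3 (*Rtn1*, *Dcx* and *Mllt11*), all higher in the Sox10-low pools, against 2.06% of all genes tested in that direction. *Rtn1*, a reticulon of neurons, was at 8.96 to 31.9 CPM and at 8.44 to 66.6 CPM (log2 fold change -0.79, -1.54 to -0.05, p = 0.039, adjusted p = 0.9998 by edgeR). *Dcx*, the microtubule protein doublecortin, was at 0 to 8.85 CPM and at 0.21 to 31.9 CPM. *Tubb3* itself had a log2 fold change of -0.61 (-1.998 to 0.786), and *Elavl4*, an RNA-binding protein of neurons, one of 0.01 (-0.57 to 0.58). Catecholamine genes had a median log2 fold change of -0.87 over the 9 tested of 11, with 7 below 0, 0 at an unadjusted p under 0.05 and 0 passing. *Th*, the first enzyme of catecholamine synthesis, was at 0.56 to 17.1 CPM and at 0 to 29.9 CPM (log2 fold change -0.87, -2.50 to 0.76). *Dbh*, which makes noradrenaline, was at 3.94 to 80.9 CPM and at 1.496 to 174 CPM (log2 fold change -1.10, -2.69 to 0.50). The values of both groups overlapped for each of these genes, and members of a list are not independent of each other.

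**Figure D4:**
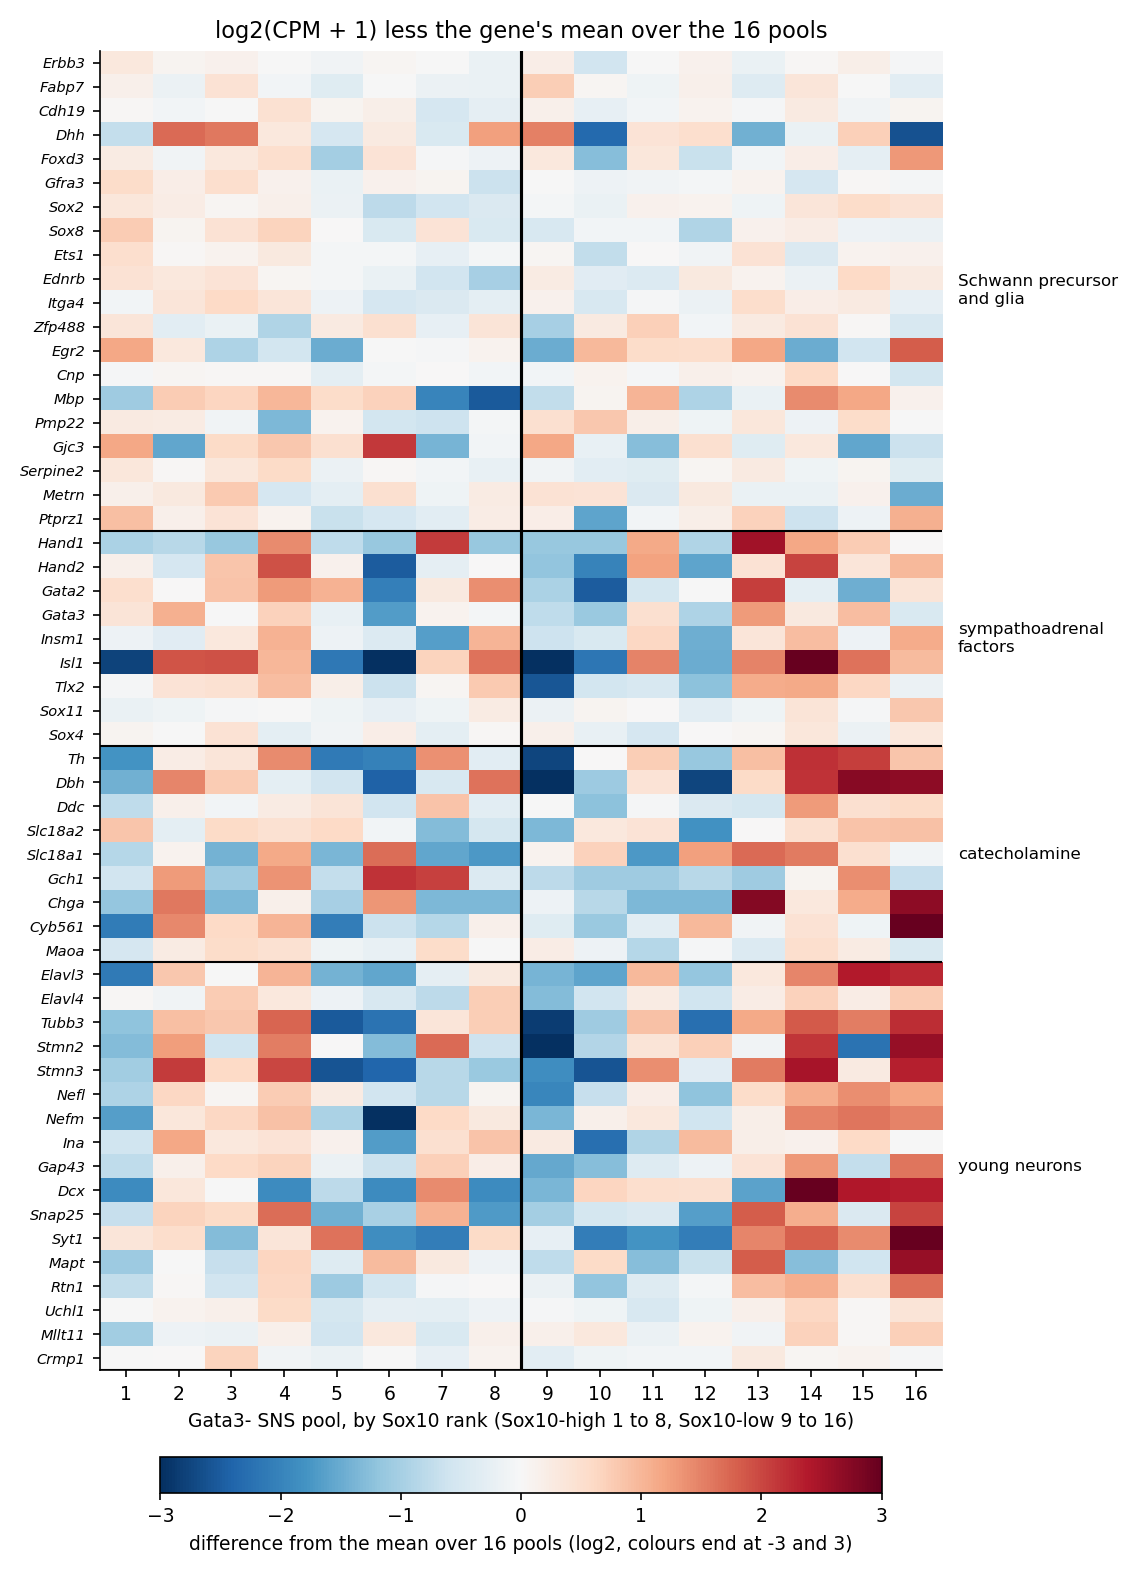
Difference of log2(CPM + 1) from each gene's mean over the 16 *Gata3*- SNS pools, for tested genes of the lists of glial precursors, sympathoadrenal factors, catecholamine synthesis and young neurons (rows), with the pools in order of *Sox10* (columns) and a line at the split. Most glial precursor rows are pale (*Dhh*, *Egr2*, *Mbp* and *Gjc3* are not), while *Tubb3* and *Isl1* are blue in pools of both groups (ranks 1, 5, 6, 9, 10 and 12). Both genes are above their mean (red, pale in some) in all the other pools of both groups.

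A principal component analysis of 9627 genes with a mean of at least 10 CPM over the 16 pools gave a first component with 12.9% of the variance and a second with 10.1%. The positive end of the first component was led by genes that included *Isl1*, *Stmn3*, *Dbh*, *Tubb3* and *Ret*, and the negative end by genes that included *Wt1*, *Nr5a1*, *Lhx9* and *Gata4*, which encode factors of the coelomic epithelium and of the adrenal and gonadal primordia. The Sox10-high pools scored from -39.0 to 22.8 and the Sox10-low pools from -21.3 to 33.9, so that the groups overlapped along it. The pool with the lowest score had *Sox10* rank 7, and it also had the most counts of the 16 (9147907).

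Reads of genes listed for other cell types were present in both groups. The summed level of the 8 adrenocortical and gonadal genes ran from 15.6 to 334 CPM in the Sox10-high pools and from 3.89 to 157.6 CPM in the Sox10-low pools, and from 0 to 18.96 CPM in the 15 *Gata3*+ SNS pools. *Wt1* was at 0.96 to 195 CPM and at 38.2 to 145.9 CPM in the Sox10-high and Sox10-low pools. *Cyp11a1*, the first enzyme of steroid synthesis, was at 66.4 CPM in the pool of rank 7 and at 14.5 CPM in that of rank 6, and at 0.30 CPM or less in the other 14. Of the 6 adrenocortical genes tested, 5 had a positive log2 fold change with a median of 0.74, and 0 passed. Without the pool of rank 7, edgeR called 0 genes and 588 had an unadjusted p under 0.05. The 18 mesenchymal genes summed to 1287 to 2132 CPM and to 1027 to 1672 CPM, and to 5133 to 6734 CPM in the 3 *Gata3*- SNS pools left out by *Pdgfrb*. Of the 16 mesenchymal genes tested besides *Pdgfrb* 0 passed and the median log2 fold change was 0.06. *Dcn* and *Postn* were nominally higher in the Sox10-high pools (2.21% of all genes tested were) and *Foxc2* in the Sox10-low pools (2.06% were). *Postn*, the matrix protein periostin, was at 639 to 1139 CPM and at 521 to 896 CPM (log2 fold change 0.25, p = 0.046, adjusted p = 0.9998 by edgeR). This gene alone thus made up a large part of the mesenchymal sums. In a fit of log2 *Sox10* over the 15 *Gata3*+ SNS pools, 9 mesenchymal genes were tested. Of these, 2 (*Postn* and *Col3a1*) rose with *Sox10* and 0 fell, and 1.24% of all genes tested rose. Which cells the mesenchymal reads came from was not tested. *Dct*, an enzyme of melanin synthesis and a marker of melanoblasts, was at 13.9 to 60.9 CPM and at 3.65 to 45.1 CPM, while *Tyr*, *Tyrp1* and *Mlana* were under 1 CPM in every pool. The melanoblast list had 3 of 7 genes tested, with 0 at an unadjusted p under 0.05. The lists of motor neuron and neural tube genes and of erythroid genes had 0 members tested, and those of sensory neurons, muscle, endothelium, white blood cells and epithelia had 3 of 15, 2 of 12, 4 of 13, 1 of 12 and 6 of 13 tested. None of these members had an unadjusted p under 0.05.

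Receptors and their ligands gave no call. Besides *Ngfr*, 13 of 16 receptors for neuregulin, endothelin, neurotrophins and GDNF family ligands were tested, with 0 at an unadjusted p under 0.05 and a median log2 fold change of -0.05. *Erbb2*, the partner of *Erbb3*, had a log2 fold change of 0.20 (-0.20 to 0.60), and *Gfra3*, the artemin receptor, of 0.19 (-0.10 to 0.47). *Ret*, the signalling receptor of the GDNF family and a gene of maturing neuroblasts, was at 3.94 to 49.9 CPM and at 5.13 to 104.4 CPM (log2 fold change -1.01, -2.24 to 0.23). Of 14 ligands 10 were tested, 0 with an unadjusted p under 0.05 and with a median of 0.15, and *Nrg1*, the neuregulin gene, was at 3.92 CPM or less. Among Notch pathway genes 14 of 18 were tested with a median log2 fold change of 0.10 and 0 passed. *Hey2* alone had an unadjusted p under 0.05 there, at levels of 0.28 to 23.8 and 0.17 to 3.03 CPM, with its highest value in the pool of rank 7. Of all genes tested, 2.21% were higher in the Sox10-high pools at such a p. *Heyl*, a Notch target, was at 57.9 to 123.5 CPM and at 57.03 to 112.2 CPM (log2 fold change 0.27, -0.07 to 0.62).

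All 28 adhesion and guidance genes were tested, 0 passed, and the median log2 fold change was 0.08. *Nid1*, the basement membrane protein nidogen, had the smallest p of the list. It was at 259, 195, 206, 193, 181, 169, 168 and 159.3 CPM in the Sox10-high pools of ranks 1 to 8, and at 169, 128.4, 146.4, 155.05, 136.8, 119.2, 162 and 135.9 CPM in the Sox10-low pools of ranks 9 to 16. The pools of ranks 9 and 15 lay inside the range of the Sox10-high pools. Its log2 fold change was 0.38 (0.17 to 0.59, p = 0.0012, adjusted p = 0.9998 by edgeR). *Ncam1*, a neural adhesion molecule, and *Robo2*, a receptor of Slit proteins, had log2 fold changes of -0.33 and -0.44 with unadjusted p of 0.029 and 0.032 by edgeR. Of all genes tested, 2.06% were higher in the Sox10-low pools at an unadjusted p under 0.05. Cell cycle genes gave no call. Among 43 genes of S phase none, and among 54 genes of G2/M 1, had an unadjusted p under 0.05, with medians of 0.02 and -0.03. The interval excluded a 2-fold difference for 40 and 51 of them, and for 65.8% of all genes tested. Of 20 cyclins, kinases and inhibitors 19 were tested with 0 at an unadjusted p under 0.05. *Cdkn1c*, which encodes the inhibitor p57, was at 1579 to 2727 CPM and at 1533 to 2589 CPM.

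Of the 39 *Hox* genes 29 were tested, with 0 passing and a median log2 fold change of -0.09. *Hoxc6* and *Hoxc4* were nominally higher in the Sox10-high pools (2.21% of all genes tested were) and *Hoxd8* in the Sox10-low pools (2.06% were). *Hoxc6* was at 13.8 ± 5.30 and 7.48 ± 2.10 CPM (SD, n = 8 each), with a log2 fold change of 0.85. That difference had p = 0.0059 and adjusted p = 0.9998 by edgeR. Of 44 collagen chains 29 were tested with a median of -0.03, and 1 had an unadjusted p under 0.05. The 13 immediate early and heat shock genes had a median of -0.07 and 1 such member, *Atf3*, and the 5 genes of the sex chromosomes a median of -0.09 and none.

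Among the 14219 genes, 4 had CPM values that did not overlap between the groups (0.0281% of the genes tested). These were *Dtd1*, *Rbm5*, *Hsf1* and *Bbs12*, named after their values were seen, and all 4 were higher in the Sox10-high pools. *Dtd1* (chromosome 2, 144599897-144768758), which encodes a D-aminoacyl-tRNA deacylase, had the smallest p of all genes. Its levels were 31.98, 22.1, 29.3, 25.9, 23.2, 27.9, 30.6 and 22.4 CPM in the pools of ranks 1 to 8, and 12.6, 17.1, 14.7, 11.1, 10.4, 20.2, 10.52 and 19.03 CPM in those of ranks 9 to 16. The log2 fold change was 0.86 (SE 0.18, 0.48 to 1.23, p = 0.000153), and it did not pass the adjustment (adjusted p = 0.9998 by edgeR). *Rbm5*, a splicing regulator, was at 167 and 121.4 CPM on average, and *Hsf1*, the heat shock factor, at 57.8 and 39.8 CPM. None of the 24 genes with the smallest p passed. Of these, 16 were higher in the Sox10-high and 8 in the Sox10-low pools, 1 (*Nid1*) belonged to a list, and 7 had means under 20 CPM in both groups. *Pcdh19*, a protocadherin gene on chromosome X, was at 0 to 14.6 CPM against 0 to 0.64 CPM. The noncoding RNA *Neat1* was at 0 to 2.30 CPM against 0.86 to 12.5 CPM, and *Xpo5*, the exporter of microRNA precursors, at 17.8 to 37.99 CPM against 31.3 to 65.7 CPM. Further genes of the 24 were *Afg3l1* (means of 50.6 and 33.03 CPM), *Rhob* (304 and 219 CPM), *Lmnb1* (62.9 and 41.7 CPM), *Mysm1* (35.1 and 50.3 CPM) and *Bbx* (54.997 and 87.3 CPM). *Tssk4* (0.074 and 2.20 CPM) and *Zfp773* (3.21 and 0.17 CPM) were among the genes with few reads in either group.

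The same rule was applied to the *Gata3*+ SNS pools, which share no pool with the first comparison. Of 15 that met the limits, 7 were Sox10-high (266 to 351 CPM of *Sox10*) and 7 Sox10-low (122.7 to 251.5 CPM), and the middle pool was left out. The mean *Sox10* of the groups differed 1.80-fold here, against 1.33-fold in the *Gata3*- SNS pools, so the contrasts differ in size. edgeR called 0 of 13921 genes (0%), with a smallest adjusted p of 0.217, and 1633 genes had an unadjusted p under 0.05 (11.7%), of which 729 were higher in the Sox10-high pools (5.24%) and 904 in the Sox10-low pools (6.49%). With ERCC size factors 870 genes did, and 0 were called. DESeq2's Wald test called 22 genes, 4 higher and 18 lower in the Sox10-high pools. With log2 *Sox10* as a continuous term over the 15 pools edgeR called 288 of 14038 genes, of which 174 rose with *Sox10* (1.24% of the genes tested) and the others fell (0.812%). Of the 20 glial precursor genes tested in that fit, 8 rose with *Sox10* (among them *Erbb3*, *Cdh19*, *Ednrb*, *Ets1*, *Foxd3*, *Serpine2* and *Sox8*) and 0 fell, and of the 18 genes of young neurons 5 fell (*Elavl3*, *Nefl*, *Nefm*, *Tubb3* and *Uchl1*) and 0 rose. In the *Gata3*- SNS pools the same fit called 0 of these genes.

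Side by side, the glial precursor genes had a median log2 fold change of 0.53 over 20 genes in the *Gata3*+ SNS split and of -0.05 over 22 in the *Gata3*- SNS split. The medians of the genes of young neurons were -1.13 and -0.46. *Erbb3* was at 153.4 to 195 CPM in the Sox10-high and 45.9 to 156.5 CPM in the Sox10-low *Gata3*+ SNS pools, and its log2 fold change of 0.87 (0.42 to 1.32) had an adjusted p of 0.261 by edgeR. *Tubb3* was at 101.1 to 502 CPM against 179 to 1438 CPM (log2 fold change -1.83, adjusted p = 0.264 by edgeR). *Isl1* was at 28.6 to 252 CPM against 39.5 to 802 CPM (log2 fold change -2.11, adjusted p = 0.264 by edgeR). With log2 *Sox10* as a continuous term, *Erbb3* had a slope of 1.05 on the log2 scale per doubling of *Sox10* in the *Gata3*+ SNS pools (adjusted p = 0.00059 by edgeR) and of 0.10 in the *Gata3*- SNS pools (adjusted p = 0.998 by edgeR). *Tubb3* had a slope of -2.07 there (adjusted p = 0.00028 by edgeR) and of -1.59 in the *Gata3*- SNS pools (adjusted p = 0.989 by edgeR).

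The difference between the populations was tested as an interaction in 1 fit of the 4 groups. edgeR called 0 of 15605 genes (0%), and 1093 had an unadjusted p under 0.05. The split of *Erbb3* was lower by 0.85 in the *Gata3*- SNS pools than in the *Gata3*+ SNS pools on the log2 scale (95% interval of the difference -1.33 to -0.36, p = 0.0012, adjusted p = 0.486 by edgeR). For *Ednrb* the difference was -1.19 (-1.96 to -0.42, adjusted p = 0.567 by edgeR), and for *Tubb3* 1.22 (-0.57 to 3.003, adjusted p = 0.811 by edgeR). A different response to the split in the 2 populations was thus not shown for any gene.

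**Figure D5:**
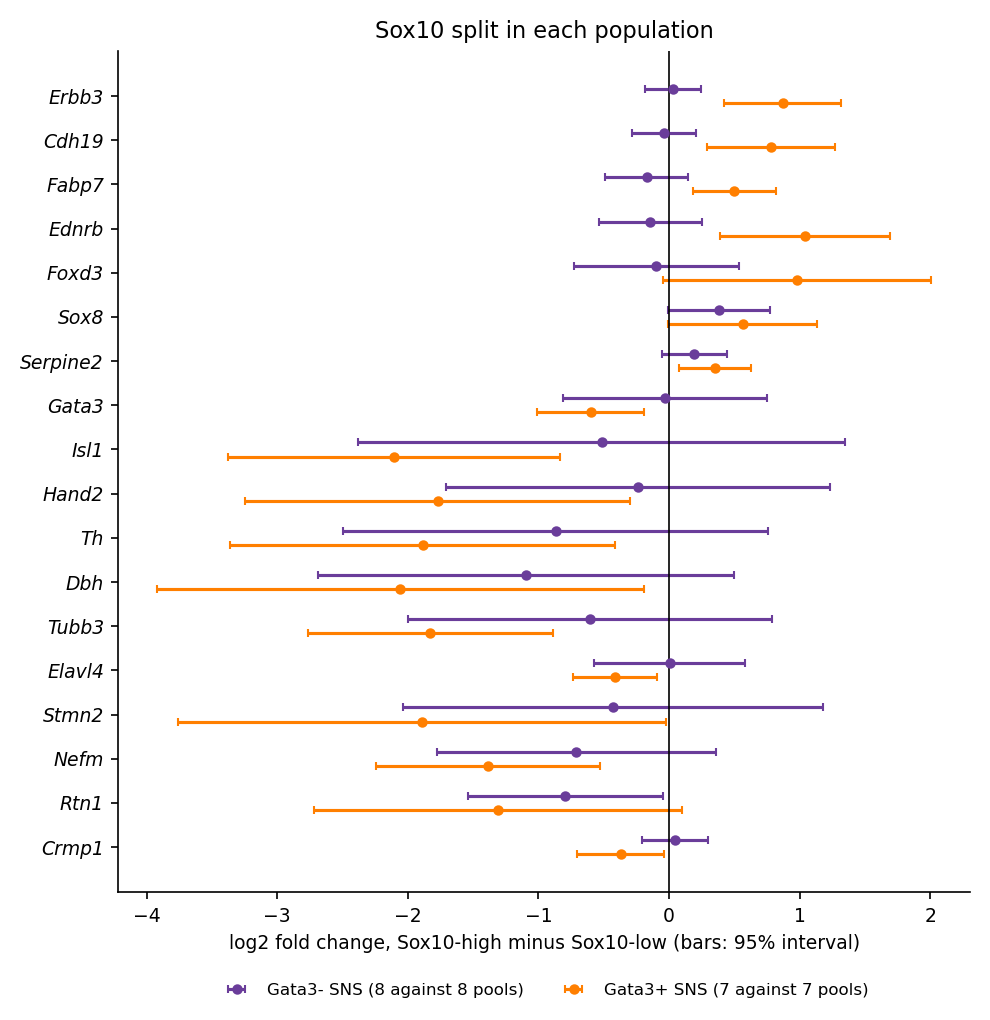
Log2 fold change between Sox10-high and Sox10-low pools (horizontal, points, with 95% intervals as bars) for 18 genes of glial precursors, sympathoadrenal factors, catecholamine synthesis and young neurons, in *Gata3*- SNS and *Gata3*+ SNS pools. In the *Gata3*- SNS pools *Erbb3* and *Cdh19* lie near 0 with short bars and *Isl1*, *Th* and *Tubb3* have bars that span 0, and no gene shown passed the adjusted limit in either population.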

How the data were processed

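The authors deposited raw read counts per gene from Smart-seq2 libraries of 20-cell pools, with 46078 genes and 92 ERCC spike-in RNAs, and no normalization was applied to these counts. The study's methods name STAR and HTSeq, while the submitters' processing notes name GSNAP, HTSeq (0.5.3p3) and mm10, and which aligner made the table was not settled. Strand and overlap settings are not given in the sources used here. HTSeq left 12.8% to 19.7% of reads as ambiguous in the 16 pools compared. Column names gave each pool's population but no replicate number, so pools were assigned to a population only.

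Rows of HTSeq summaries were left out of library sizes and tests. CPM is per 1000000 counts on genes and is not adjusted for length, so levels were compared between pools and not between genes. Genes that reached 10 counts in 5 pools or more were tested with edgeR 4.0.16 (TMM factors, quasi-likelihood, robust) in R 4.3.3. Limits for a call were 0.01 on the adjusted p (Benjamini-Hochberg) and 0.1 on the size of the log2 fold change, and adjusted p-values are over all genes tested. Alternatives used DESeq2 1.42.0, scran 1.30.0 and scanpy 1.11.5. Scripts were tested on simulated data. Library measures were compared by the exact two-sided permutation test, adjusted over 5 measures. The text names the members of 26 gene lists that the account turns on, the 24 genes with the smallest p because fewer than 24 were called, and *Sox10*, *Ngfr*, *Pdgfrb* and *Gata3* as description. The pools, the rule and the lists were chosen with earlier results of these data known. Leaving out *Sox10*, *Ngfr* and *Pdgfrb*, which chose the pools, the lists held 484 genes, of which 357 were tested, 0 passed and 19 had an unadjusted p under 0.05. Of all genes tested, 4.27% had such a p. Gene symbols matched 45143 of the gene IDs. Depth of 3326393 to 9147907 counts on genes per pool limits what can be seen of genes at a few CPM. Values of some members of the lists are not reported here, although the lists' counts and medians include them.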

Additional observations from a re-analysis of the deposited data

Results flagged for a closer look

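For 9 of the measures and named genes examined, a single pool lay far from the other 7 in the Sox10-high *Gata3*- SNS group, in different pools for different measures. The value of that pool was 1.17% for the share of ERCC RNAs (rank 7), 24.01 CPM for *Hand2* (rank 4), 8.85 CPM for *Dcx* (rank 7), 337 CPM for *Crmp1* (rank 3), 83.9 CPM for *Nr5a1* (rank 1), 458 CPM for *Col1a2* (rank 1), 14.6 CPM for *Pcdh19* (rank 5), 0.590 CPM for *Tssk4* (rank 8) and 259 CPM for *Nid1* (rank 1). In the Sox10-low pools the same was found for the share of mitochondrial counts at 7.64% (rank 15), *Foxd3* at 59.2 CPM (rank 16), *Isl1* at 125.07 CPM (rank 14), *Rhob* at 147.9 CPM (rank 15) and *Zfp773* at 1.05 CPM (rank 11). Such a pool was found in 11.48% of the groups of values examined. The limit used gives about 5% for normally distributed values, which CPM of low or uneven genes are not. *Tssk4*, for example, had 2 reads in the pool of rank 8 and 0 in the other Sox10-high pools. Some of the genes were also named for their small p between the groups. Whether 11.48% exceeds chance was therefore not tested.

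*Sox10* was also high in pools outside the comparisons. It was at 331, 118.2 and 94.4 CPM in the 3 pools labelled *Gata3*- MC with *Ngfr* above *Pdgfrb*, against 0.26 to 7.32 CPM in the other 14. It was at 570, 377 and 353 CPM in the 3 such pools labelled *Gata3*+ MC, against 0.13 to 3.89 CPM in the other 17. The *Gata3*- SNS pool left out by depth had 405 CPM of *Sox10*.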

How the results depend on the processing

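All 32 alternatives of the comparison of *Gata3*- SNS pools called 0 genes, by other size factors, tests, filters, thresholds, rankings and covariates. They are not independent, since 16 of them leave out 1 pool each and share most pools. The thresholds of 0.05 and 0.001 were put on the main fit, whose smallest adjusted p was 0.9998 by edgeR, so their result was fixed by it. Leaving out each of the 16 pools in turn called 0 genes every time (lowest 0, highest 0), with 555 to 635 genes at an unadjusted p under 0.05 and a smallest adjusted p of 0.526. The smallest adjusted p of any alternative was 0.0779, by DESeq2. Without the *Ngfr* limit, which lets in the 3 pools with *Pdgfrb* above *Ngfr*, the pools were ranked and split anew. These 3 pools, with 1.12 to 3.41 CPM of *Sox10*, then stood in the low group, so the contrast is not that of the main comparison. In it 1662 of 14542 genes had an unadjusted p under 0.05 and 0 were called. With ERCC size factors on the main groups 349 genes had an unadjusted p under 0.05. A fit with the mean level of the neuronal genes as a covariate, chosen after seeing the data, called 0 genes (648 at an unadjusted p under 0.05). Of 751 values of the 24 genes with the smallest p over the alternatives, 3 had the other sign and 58 moved by 1 standard error or more. Of 1017 values of 32 listed genes, 65 had the other sign and 63 moved that far, and none of these genes passed in any alternative. Both sets of values include slopes per doubling of *Sox10* from the continuous term, which are on another scale than the split. For *Nid1* the slope was 0.85 and the log2 fold change of the split 0.38. The sets also include the thresholds on the main fit, where values cannot move. In the *Gata3*+ SNS pools DESeq2 called 22 genes and the continuous term 288, against 0 by edgeR on the split, and ERCC size factors lowered the number at an unadjusted p under 0.05 from 1633 to 870. The cause was not tested, beyond that the continuous term uses 15 pools and all *Sox10* values. The interaction called 0 genes in each alternative. No paired analysis was possible because the columns carry no replicate numbers.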
